A study of Mus musculus with 6 samples.

Results

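The 33 genes described here encode subunits of the Polycomb group complexes. They were taken by gene symbol from a fixed list, and all 33 were found among the 33924 gene rows of the table. All 33 had enough counts to pass the filter on low values. Polycomb complexes keep developmental genes silent by modifying histones. Polycomb repressive complex 2 (PRC2) methylates a lysine of histone H3 through EZH1 or EZH2, and Polycomb repressive complex 1 (PRC1) attaches ubiquitin to histone H2A through RING1 or RNF2. Another complex, PR-DUB, formed by BAP1 with an ASXL protein, removes that ubiquitin. In blood, PRC1 and PRC2 are known for sustaining the self-renewal of stem cells, in part by silencing the Cdkn2a locus, and leukaemias driven by MLL fusions are known to depend on several of their subunits. CBX8 is also known as a binding partner of AF9.

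Expression was measured by RNA sequencing of total RNA in 6 libraries of mouse leukaemia cells, 3 that arose from LSK cells (LSK 44, LSK 45 and LSK 46) and 3 that arose from granulocyte-macrophage progenitors, GMP (GMP 5, GMP 11 and GMP 19). LSK cells are lineage-negative, Sca-1-positive and Kit-positive marrow cells, a population enriched for stem cells, and GMP are restricted to myeloid fates. Both groups carried MLL-AF9 from a retrovirus. The transduced cells had been expanded in culture and injected with wild-type marrow support cells into lethally irradiated syngeneic C57BL/6 hosts, and the leukaemia cells taken from the marrow of moribund hosts were then grown with SCF, IL-3 and IL-6. The sample labels name the purified starting populations, so each library is described here by its origin. The labels give neither age nor sex of the mice, there is no untransformed group, and the labels do not say whether libraries of a group come from separate transductions or hosts. P-values therefore measure no more than how these libraries vary, which may be technical in part, and a change in the mix of cells cannot be told apart from a change in RNA per cell.

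Total counts per library lay between 16640929 and 33885428. No pair of libraries in a group was alike within counting noise (chi-square per degree of freedom at least 9.70). The myeloid progenitor genes Ptprc, Kit, Mpo, Elane, Cebpa, Cd33 and Itgam had counts in every library. GMP 5 stood apart in some of them, with Mpo at 13.8 CPM against 315.8 and 500.3 CPM in GMP 11 and GMP 19, and Elane at 65.4 CPM against 814.6 and 1562 CPM. Among LSK and stem cell markers, 4 of 5 were called higher in the LSK-derived libraries, and among GMP markers 3 of 5 were called higher in the GMP-derived ones. The other 2 GMP markers, Mpo and Cd34, were not called. Mpo ranged from 795.4 to 1415 CPM across LSK-derived libraries, above every GMP-derived value, while Cd34 overlapped between groups. The summed GMP markers were thus higher in LSK-derived libraries (1160 to 1750 CPM) than in GMP-derived ones (713 to 1060 CPM). This list therefore did not separate the groups by origin in a single direction. Of 5 T and NK cell markers the summed level was at most 0.147 CPM (counts scaled to a common library size with the trimmed mean of M-values, TMM), with Cd3e and Ncr1 at 0 counts, and of 5 erythroid markers at most 1.54 CPM. Ms4a1 and Pax5 had 0 counts, and the B cell list's sum of 14.3 to 21.9 CPM in LSK-derived and 3.61 to 7.75 CPM in GMP-derived libraries came almost wholly from Cd79b. Mature neutrophil markers, summed over 5 genes, were at 1.37 to 11.7 CPM in LSK-derived libraries and at 14.1 (GMP 5), 61.3 (GMP 11) and 530.5 CPM (GMP 19), where 2 of 3 tested members (S100a9 and Ngp) were called higher. Each of the 2 calls held in 1 of the 6 fits that left out a library (adjusted p up to 0.160 and 0.163). Macrophage markers, summed over 6 genes, were at 26.4, 69.0 and 19.3 CPM in LSK 44, 45 and 46 and at 162.2, 45.1 and 108.4 CPM in GMP 5, 11 and 19, with 1 of 3 tested members called (Mrc1, higher in LSK-derived, a call lost in all 6 such fits at 0.0734 to 0.134). Of 5 stromal and endothelial markers Col1a2 had 0 counts, and the sum of 189 to 325 CPM against 116 to 190 CPM was almost wholly Pecam1, which did not pass (adjusted p = 0.114). The part of these markers in the Polycomb differences was not tested. Values without GMP 19 are given for the 12 called members.

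Some Polycomb subunit genes were higher in leukaemias of LSK origin and others in those of GMP origin, most of them by less than 2-fold. In the LSK-derived group 8 of the 33 members were higher (Eed, Mtf2, Pcgf2, Pcgf5, Pcgf6, Cbx2, Kdm2b and Bap1) and 4 were higher in the GMP-derived ones (Suz12, Jarid2, Phf19 and Phc3), where a call means a Benjamini-Hochberg adjusted p under 0.05 (quasi-likelihood test of edgeR). The other 21 did not pass. The called members made up 36.4% of the list, against 25.7% of all 13406 tested genes (11.8% higher in LSK-derived and 13.9% higher in GMP-derived libraries). The median log2 fold change (LSK-derived minus GMP-derived, also called the log2 difference here) of the members was 0.11, against 0.01 over all tested genes, and the median size of change was 0.28 against 0.25. Called members differed by 1.19-fold to 2.08-fold. Pcgf2 and Pcgf6 were the 2 of the 12 called members that reached 2-fold. Of the 3444 called genes over the whole table, 1478 (42.9%) did so. The ranges of the 2 groups did not overlap for 19 members, or 57.6%, against 45.4% of all tested genes.

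**Figure D1:**
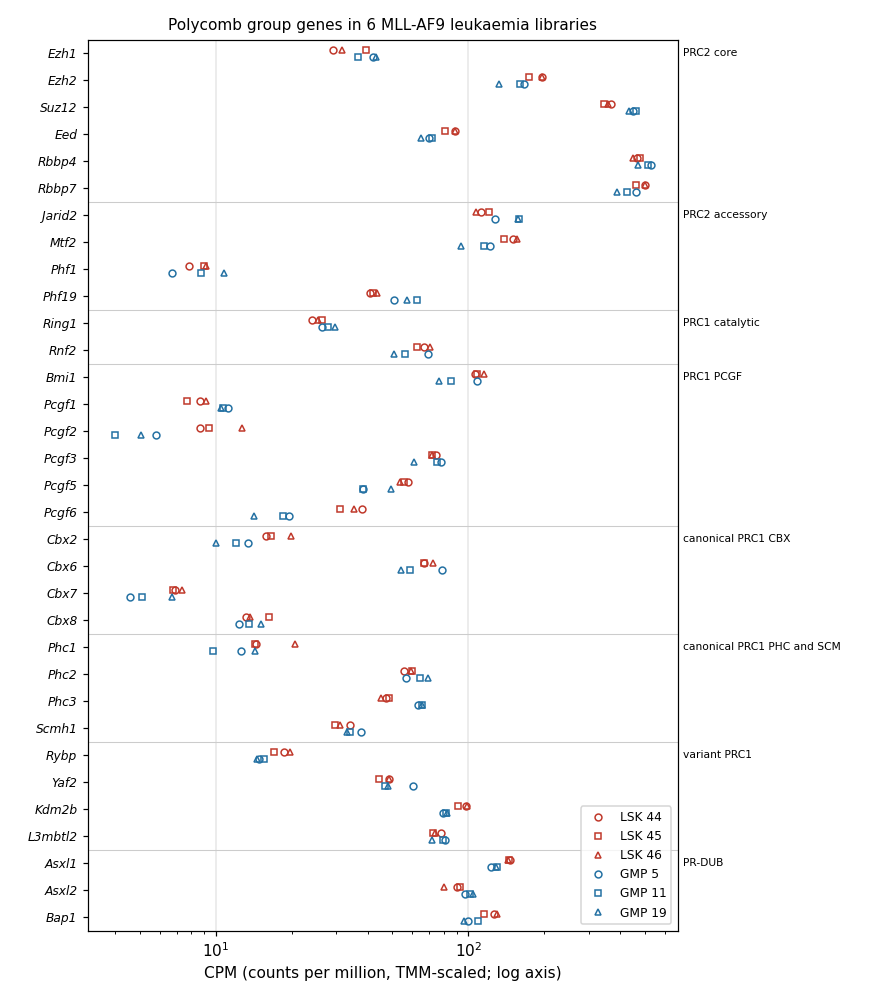
Expression of the 33 Polycomb genes in each library, in CPM on a log axis, with genes grouped by complex (red symbols, LSK-derived; blue symbols, GMP-derived). Levels ran from 4.93 CPM (Pcgf2, GMP-derived mean) to 504 CPM (Rbbp4, GMP-derived mean), and for most genes the symbols of both colours lie close together.

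The number of called members depended on single libraries. It fell to 2 higher and 2 lower without LSK 44, or 12.1% of the members, when 13.3% of all genes were called. Without LSK 46 it fell to 1 and 2, or 9.09% of the members, when 12.8% of all genes were called. In both fits the share of members was below that of all genes. The number was 4 and 3 without GMP 11 and again 4 and 3 without GMP 19. This was 21.2% of the members each time, when 18.5% and 17.2% of all genes were called. Suz12, Pcgf6 and Phc3 were the 3 members called in all 12 alternative settings, among them the 6 fits that each left out 1 library. The share of all tested genes called in every setting is not given here, so this count describes the members alone. For these 3 genes, the 250 bases before the annotated start sites are shown (RefSeq, build GRCm38.p6, 5′ to 3′ on the gene's strand). Capitals mark matches to any of 7 motifs searched on both strands. These were the E-box CACGTG, the GC box GGGCGG, the CCAAT box CCAAT, the E2F forms TTTGGCGC and TTTCGCGC, and the NRF1 and YY1 motifs. No motif's letters contain those of another. Pcgf6 lies on the minus strand (chr19:47050907-47051156), Suz12 on the plus strand (chr11:79992856-79993105) and Phc3 on the minus strand (chr3:30969416-30969665).
Pcgf6: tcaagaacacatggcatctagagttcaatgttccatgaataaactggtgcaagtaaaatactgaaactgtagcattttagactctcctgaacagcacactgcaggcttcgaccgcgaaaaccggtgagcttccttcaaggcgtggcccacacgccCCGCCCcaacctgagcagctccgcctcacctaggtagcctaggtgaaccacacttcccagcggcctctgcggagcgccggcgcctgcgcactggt
Suz12: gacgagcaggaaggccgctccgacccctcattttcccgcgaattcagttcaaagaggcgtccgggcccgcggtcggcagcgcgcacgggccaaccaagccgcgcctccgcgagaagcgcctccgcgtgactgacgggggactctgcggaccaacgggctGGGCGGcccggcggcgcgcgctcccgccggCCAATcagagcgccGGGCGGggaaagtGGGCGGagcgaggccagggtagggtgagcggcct
Phc3: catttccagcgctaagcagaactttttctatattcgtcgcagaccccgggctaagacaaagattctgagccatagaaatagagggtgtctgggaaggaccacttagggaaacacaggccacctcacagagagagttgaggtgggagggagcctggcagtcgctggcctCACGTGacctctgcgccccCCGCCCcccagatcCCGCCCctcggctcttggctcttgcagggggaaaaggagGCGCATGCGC
The Suz12 window held 37 CpG pairs at 73.6% GC, 3 GC boxes and a CCAAT box. The Pcgf6 window held 14 CpG pairs at 56.0% GC and 1 GC box, and the Phc3 window 12 CpG pairs at 59.2% GC, 2 GC boxes, an E-box and an NRF1 motif. RefSeq windows were matched for 29 members, all but Cbx2, Pcgf1, Rybp and Yaf2. A GC box stood in 23 of the 29 (79.3%, against 35.4% of 27025 genes with a window), a CCAAT box in 11 (37.9% against 37.5%) and an E-box in 8 (27.6% against 6.86%). The 27025 genes were not limited to those that passed the filter on low values, as all 29 members did. Whether these gaps are particular to Polycomb genes was not tested. The 8 with an E-box were Bap1, Bmi1, Cbx6, Cbx8, Pcgf2, Phc2, Phc3 and Rbbp4, of which Bap1 and Pcgf2 were called higher, Phc3 lower, and the others were not called. The NRF1 motif stood in 1 window, that of Phc3 (3.45% against 0.877%). The first and second E2F forms and the YY1 motif stood in 0 of the 29 windows, and in 0.485%, 0.30% and 0.359% of genes. No other form of the E2F motif was searched, so these windows may hold others. A match describes these letters alone and is not evidence of a bound factor.

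Core subunits of PRC2 moved in both directions. Suz12, the scaffold subunit, was lower in LSK-derived libraries. LSK 44, LSK 45 and LSK 46 had 365.7, 343.2 and 358.0 CPM, and GMP 5, GMP 11 and GMP 19 had 449.2, 460.0 and 431.4 CPM, the order kept for all values that follow. All 3 LSK-derived values lay under all 3 GMP-derived values, a log2 fold change of -0.33 ± 0.06 (approximate SE; adjusted p = 0.0104). Without GMP 19 it was -0.35 (adjusted p = 0.0205). Eed, the subunit that reads the methyl mark, went the other way, at 88.3, 80.7 and 88.8 CPM against 69.8, 72.1 and 64.8 CPM (log2 difference 0.32 ± 0.07, adjusted p = 0.0216). The groups did not overlap, but the call of Eed was lost without LSK 44 (adjusted p = 0.0818), LSK 46 (0.0855) or GMP 19 (0.0591).

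Ezh2, the main methyltransferase of dividing cells, was at 195.0, 174.4 and 195.6 CPM in the LSK-derived and at 166.3, 160.2 and 132.8 CPM in the GMP-derived libraries. Its groups did not overlap and it did not pass (log2 difference 0.30 ± 0.10, adjusted p = 0.0706), although DESeq2 (0.0298) and limma voom with sample weights (0.0346) called it. Without GMP 19, the lowest library, it was 0.21 (adjusted p = 0.131). Ezh1, its less active paralogue, was at 29.2, 39.2 and 31.4 CPM against 42.0, 36.6 and 43.1 CPM and did not pass (log2 difference -0.28 ± 0.13, adjusted p = 0.153), with LSK 45 inside the GMP-derived range. Without LSK 45 it was called (log2 difference -0.42, adjusted p = 0.0416). The histone-binding subunit genes Rbbp4 (log2 difference -0.12 ± 0.07) and Rbbp7 (0.20 ± 0.08), which also serve other chromatin complexes, did not pass. Per kilobase of transcript they were the 2 most abundant members in both groups, at means of 105.4 and 114.3 CPM per kilobase (LSK-derived and GMP-derived) for Rbbp4 and 217.5 and 189.3 for Rbbp7.

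Accessory subunits steer PRC2 to chromatin, and those of its alternative forms are known to be mutually exclusive. JARID2 marks one form, and the Polycomb-like proteins PHF1, MTF2 and PHF19 mark the other. Mtf2 was higher in LSK-derived libraries, at 150.9, 138.8 and 156.2 CPM against 121.3, 115.1 and 93.7 CPM (log2 difference 0.43 ± 0.11, adjusted p = 0.0273). Without GMP 19, the lowest library, it was 0.33 (adjusted p = 0.0403), and the call was lost without LSK 44 (0.0878), LSK 46 (0.0950) or GMP 11 (0.0551). Phf19 was lower, at 41.0, 41.9 and 43.5 CPM against 50.7, 62.5 and 57.3 CPM (log2 difference -0.43 ± 0.09, adjusted p = 0.0166). It lost its call without LSK 44 (0.0698) or LSK 46 (0.0548), and without GMP 19 it was -0.43 (0.0440). Jarid2 was lower as well, at 112.1, 120.7 and 106.9 CPM against 127.9, 158.3 and 157.7 CPM (log2 difference -0.39 ± 0.10, adjusted p = 0.0322). GMP 5 was the GMP-derived library closest to the LSK-derived range. Its call was lost without LSK 44 (0.104), LSK 46 (0.117), GMP 11 (0.0925) or GMP 19 (0.0892). Phf1 was low, between 6.72 and 10.7 CPM in the 6 libraries, and did not pass (adjusted p = 0.968). In these data, then, 1 Polycomb-like gene was higher and another lower in the same libraries. Exons of Mtf2 overlap those of Tmed5 on the opposite strand by 395 bases and exons of Phf1 overlap those of Cuta by 717 bases, with 27965 counts in all for Tmed5 and 12657 for Cuta, so reads there cannot be assigned without a strand setting.

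**Figure D2:**
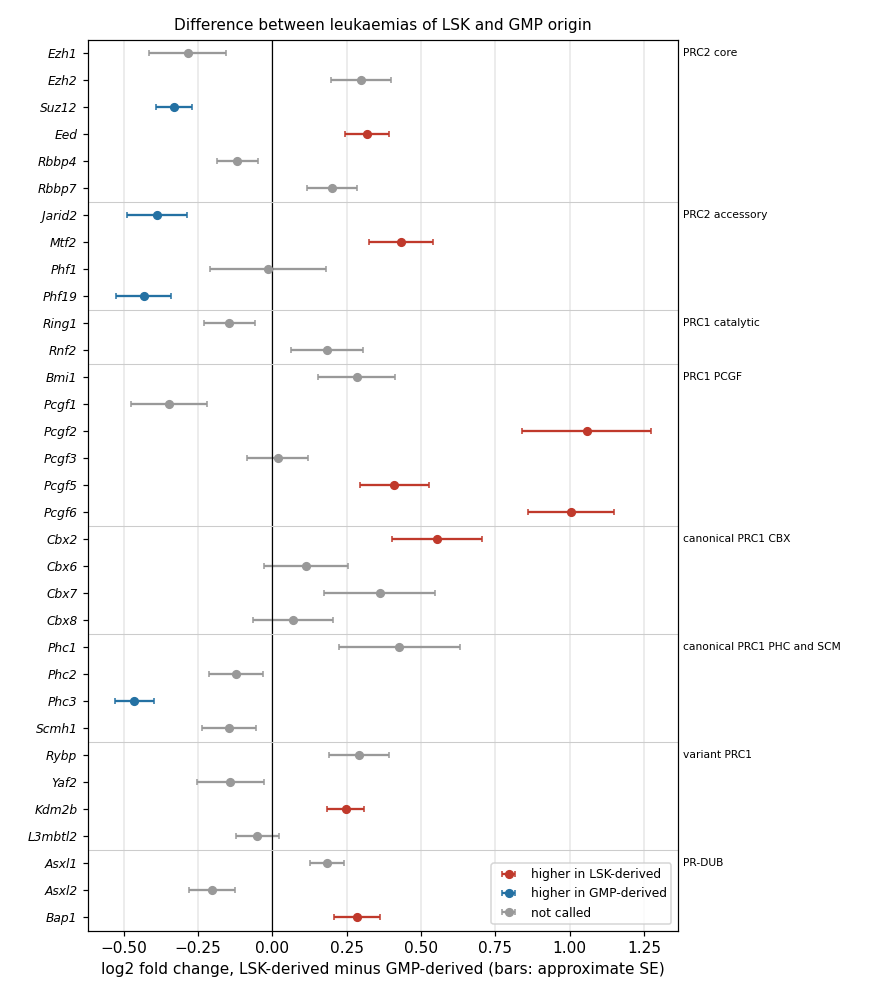
Log2 fold change of each Polycomb gene, LSK-derived minus GMP-derived, with the approximate SE as bars (red, called higher in LSK-derived; blue, called higher in GMP-derived; grey, not called). Pcgf2 and Pcgf6 stand furthest to the right, at 1.06 and 1.00, and Phc3 furthest to the left, at -0.46.

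PCGF proteins pair with RING1 or RNF2 and decide which form of PRC1 is built, and this family held the largest changes. Of 6 members, 3 were higher in LSK-derived libraries, none was lower and 3 did not pass, where 11.8% of all tested genes were higher and 25.7% were called. Pcgf6, whose protein joins L3MBTL2, MGA and MAX in a variant PRC1, was at 38.0, 30.9 and 35.3 CPM in the LSK-derived and at 19.4, 18.4 and 14.2 CPM in the GMP-derived libraries. The lowest LSK-derived library was well above the highest GMP-derived one (log2 difference 1.00 ± 0.14, a 2.00-fold difference, adjusted p = 0.00422). Without GMP 19 the log2 fold change was 0.88 (adjusted p = 0.00845). Pcgf2, which encodes MEL18 of canonical PRC1, was at 8.65, 9.42 and 12.7 CPM against 5.78, 3.98 and 5.04 CPM (log2 difference 1.06 ± 0.22, adjusted p = 0.0142). The groups did not overlap, and without LSK 46, the highest library, the log2 fold change was 0.88 and the call was lost (adjusted p = 0.0529). Without GMP 19 it was 1.08 (adjusted p = 0.0402). Pcgf5 was at 57.8, 55.9 and 53.4 CPM against 38.2, 38.2 and 49.2 CPM (log2 difference 0.41 ± 0.11, adjusted p = 0.0396). Its call held without GMP 19 (0.0102) and was lost without LSK 44 (0.121), LSK 45 (0.0801), LSK 46 (0.0893), GMP 5 (0.0984) or GMP 11 (0.111).

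Bmi1, the canonical PRC1 gene best known for stem cell self-renewal, was not called. It had 106.2, 108.0 and 114.9 CPM in the LSK-derived and 108.7, 85.6 and 76.3 CPM in the GMP-derived libraries (log2 difference 0.28 ± 0.13, adjusted p = 0.152). GMP 5 lay inside the LSK-derived range, and without it Bmi1 was called (log2 difference 0.43, adjusted p = 0.0135). For the E3 ligase gene Rnf2, at 66.8, 62.3 and 70.6 CPM against 69.0, 56.0 and 51.0 CPM, GMP 5 again lay inside the LSK-derived range (adjusted p = 0.304, or 0.0454 without GMP 5). For Cbx6, at 67.0, 66.8 and 72.4 CPM against 78.4, 58.7 and 53.9 CPM, GMP 5 was the highest of all libraries (adjusted p = 0.594, or 0.0434 without it). Ring1 was between 24.0 and 29.5 CPM in all 6 libraries and did not pass (adjusted p = 0.256). Pcgf1 (log2 difference -0.35 ± 0.13, adjusted p = 0.0868) and Pcgf3 (0.02 ± 0.10, adjusted p = 0.911) did not pass.

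CBX proteins read the methyl mark and place canonical PRC1 at PRC2 targets. Of the 4 CBX members 1 was called, a share of 25.0% that is near the 25.7% of all tested genes. This was Cbx2, at 15.7, 16.602 and 19.8 CPM in the LSK-derived against 13.4, 12.1 and 10.1 CPM in the GMP-derived libraries (log2 difference 0.56 ± 0.15, adjusted p = 0.0362). The groups did not overlap. The call held without GMP 5 (0.0283) and was lost without LSK 44 (0.0679), LSK 45 (0.0634), LSK 46 (0.124), GMP 11 (0.0847) or GMP 19 (0.0853). Cbx8, the AF9 partner, was at 13.2, 16.2 and 13.7 CPM against 12.3, 13.6 and 15.1 CPM. The ranges overlapped and the gene did not pass (log2 difference 0.07 ± 0.13, adjusted p = 0.733). Cbx7 was the lowest member by counts per kilobase, at 4.55 to 7.33 CPM in the 6 libraries (adjusted p = 0.198), and its exons overlap those of the more abundant Apobec3 on the opposite strand.

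Phc3, one of 3 genes for the polyhomeotic proteins that link PRC1 complexes through their SAM domains, was lower in LSK-derived libraries. It was at 47.1, 48.5 and 45.3 CPM against 63.0, 65.5 and 65.7 CPM, with little spread in either group (log2 difference -0.46 ± 0.07, adjusted p = 0.00413; -0.45 without GMP 19, adjusted p = 0.0148). Phc1 had the opposite sign and did not pass, at 14.5, 14.2 and 20.5 CPM against 12.6, 9.74 and 14.3 CPM (log2 difference 0.43 ± 0.20, adjusted p = 0.166). Phc2 (adjusted p = 0.369) and Scmh1, a SAM domain partner of the PHC proteins (adjusted p = 0.274), did not pass.

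Among subunits of variant PRC1, 1 of 4 was called, a share (25.0%) near that of all tested genes (25.7%). Kdm2b, whose protein brings PCGF1 complexes to unmethylated CpG islands, was at 98.1, 91.4 and 98.6 CPM in the LSK-derived against 79.2, 81.2 and 82.2 CPM in the GMP-derived libraries (log2 difference 0.25 ± 0.06, adjusted p = 0.0290). The groups did not overlap. The call was kept without LSK 45 (0.0351) and lost without LSK 44 (0.0977), LSK 46 (0.109), GMP 5 (0.0608), GMP 11 (0.0768) or GMP 19 (0.0581), and with no filter on low counts (0.0594). Exons of Kdm2b overlap those of Rnf34 by 627 bases on the opposite strand. Rybp, a subunit that stimulates ubiquitylation, was at 18.6, 16.9 and 19.6 CPM against 14.8, 15.5 and 14.6 CPM. Its groups did not overlap, yet it missed the threshold (adjusted p = 0.0742). Its homologue Yaf2 (adjusted p = 0.396) and L3mbtl2 (adjusted p = 0.644) did not pass.

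PR-DUB genes showed small differences. Bap1, the deubiquitinase, was at 126.4, 115.2 and 129.4 CPM in the LSK-derived against 99.3, 109.0 and 96.0 CPM in the GMP-derived libraries (log2 difference 0.28 ± 0.08, adjusted p = 0.0381). The groups did not overlap, and the call was lost without LSK 44 (0.118), LSK 46 (0.131), GMP 5 (0.0747) or GMP 19 (0.0991), and, at the threshold itself, with no filter on low counts. Asxl1, a BAP1 cofactor often mutated in myeloid disease, was at 146.0, 144.2 and 143.6 CPM against 123.2, 130.3 and 128.2 CPM and did not pass (log2 difference 0.18 ± 0.06, adjusted p = 0.0557). It was called by DESeq2 (0.0138), with upper-quartile scaling (0.0362) and with sample weights (0.0481). Asxl2 had the opposite sign, with a log2 fold change of -0.20 ± 0.08 (adjusted p = 0.0983).

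**Figure D3:**
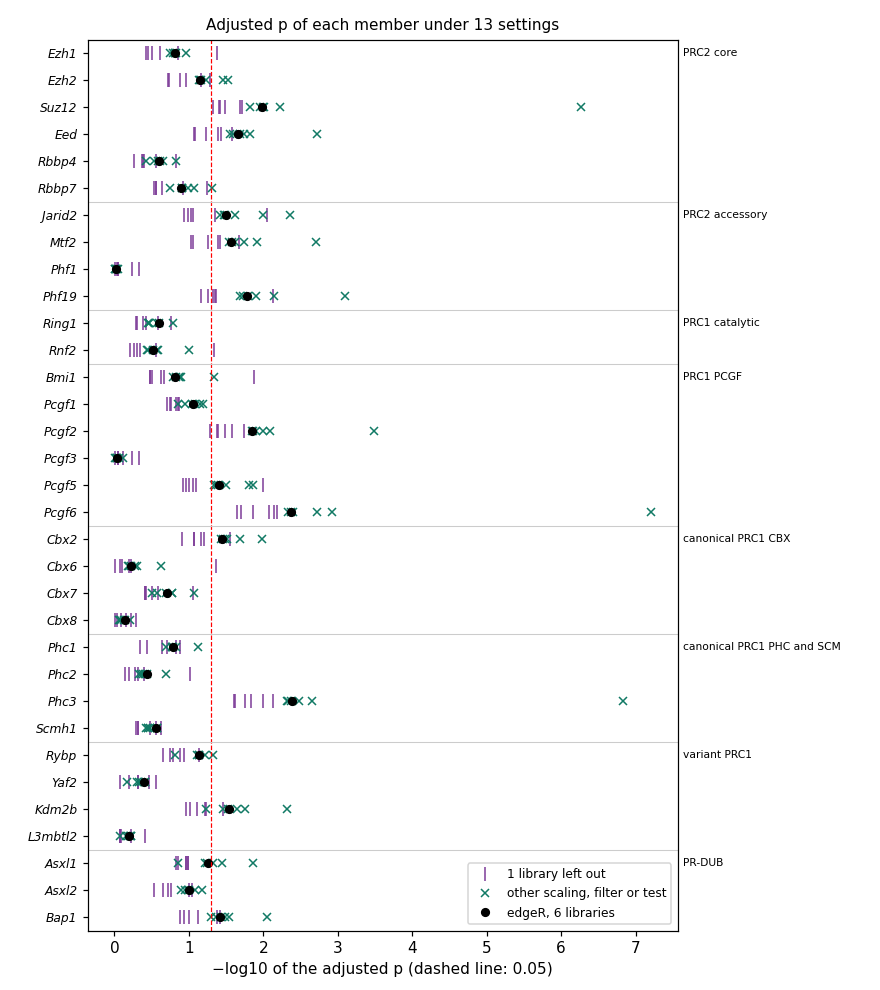
Adjusted p of each Polycomb gene on a −log10 scale, from edgeR on 6 libraries (black dots), from the 6 fits that each left out 1 library (purple bars) and from 6 other choices of scaling, filter or test (green crosses). For Suz12, Pcgf6 and Phc3 every mark lies right of the dashed line at 0.05, and for the other 9 called members at least 1 bar lies left of it.

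Paralogues in the same complex can replace each other, so their ratio was compared inside each library, where no scaling between libraries enters. The ratio of Ezh2 to Ezh1 counts was 6.68, 4.44 and 6.22 in LSK 44, LSK 45 and LSK 46 and 3.96, 4.37 and 3.08 in GMP 5, GMP 11 and GMP 19. All LSK-derived values were above all GMP-derived values, though LSK 45 and GMP 11 nearly met, and the ratio was 1.51-fold higher on average, a log2 difference of 0.60 that was 0.45 without GMP 19. Asxl1 to Asxl2 was 1.62, 1.55 and 1.80 against 1.26, 1.29 and 1.23, a 1.31-fold difference. Rybp to Yaf2 was 1.34-fold higher in the LSK-derived libraries and Rbbp4 to Rbbp7 was 1.25-fold lower, both without overlap. Rnf2 to Ring1 was 1.26-fold higher with overlapping groups. With 3 libraries a group, the exact two-sided permutation test over 20 divisions cannot go below p = 0.1, and 4 of the 5 ratios reached that value (0.125 after Benjamini-Hochberg adjustment over 5 ratios, and 0.2 for Rnf2 to Ring1), so none passed.

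Shares within families were computed from counts per kilobase of the longest coding transcript. Ezh2 made up 89.5 ± 2.13% of the EZH family in LSK-derived and 84.9 ± 2.36% in GMP-derived libraries (mean ± SD, n = 3). Mtf2 made up 71.4 ± 1.39% of the Polycomb-like genes against 59.1 ± 5.37%, and Phf19 22.0 ± 0.798% against 33.25 ± 3.41%. In the PCGF family Bmi1 held the largest share in both groups (39.1 ± 1.41% and 39.8 ± 3.08%), while Pcgf6 held 20.6 ± 1.61% in LSK-derived and 12.8 ± 1.17% in GMP-derived libraries. The Pcgf1 share had the opposite order, 11.8 ± 0.532% and 18.9 ± 1.34%. Among Cbx2, Cbx6, Cbx7 and Cbx8, Cbx2 held 20.25 ± 1.49% against 15.9 ± 1.25%. None of these shares, apart from that of Bmi1, overlapped between groups. Among shares not listed here, those of Ring1, Rnf2, Phf1, Cbx6, Cbx7, Cbx8, Pcgf5 and Phc2 did overlap. The size of a share rests on the transcript length assumed. With the median coding transcript the Pcgf6 share was 6.08% and 3.74%, that of Bmi1 67.2% and 67.9%, that of Pcgf1 3.76% and 5.95%, that of Phf19 9.59% and 16.2%, that of Mtf2 88.8% and 81.7% and that of Cbx2 8.69% and 6.76% (LSK-derived and GMP-derived).

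**Figure D4:**
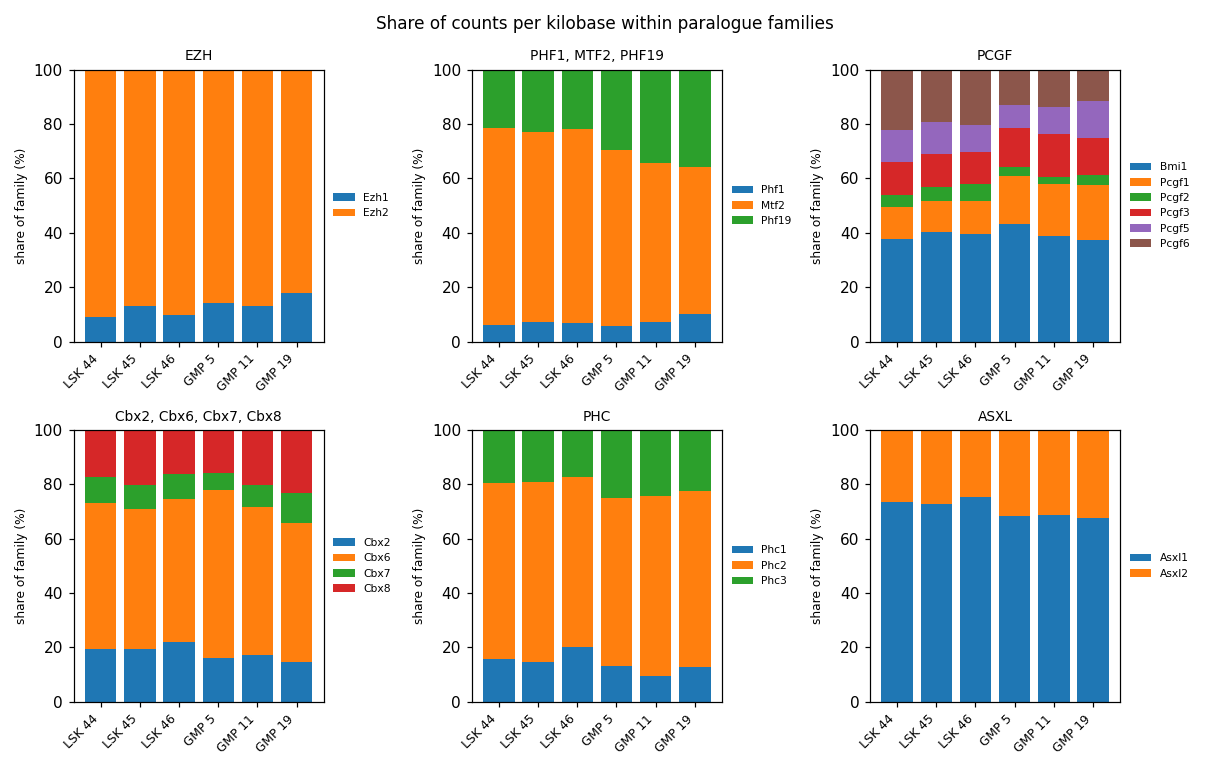
Share of each gene in its family's counts per kilobase, in percent, 1 bar per library, for the EZH, Polycomb-like, PCGF, CBX (Cbx2, Cbx6, Cbx7 and Cbx8), PHC and ASXL families. The Pcgf6 segment fills 19.2% to 22.4% of the LSK-derived and 11.6% to 13.9% of the GMP-derived bars.

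Of 42 further genes for Polycomb subunits, partners and opposing enzymes, 39 were tested, 3 were called higher and 1 lower in the LSK-derived group, and 35 were not called. The called share was 10.3%, against 25.7% of all tested genes, and the median log2 fold change was 0.12. Skp1a, a subunit of the BCOR form of PRC1 and of SCF ubiquitin ligases, was at 327.3, 328.3 and 324.9 CPM against 265.8, 242.0 and 234.5 CPM (log2 difference 0.40 ± 0.07, adjusted p = 0.00749) and was called in all 12 alternatives. Mbtd1, an MBT domain gene, was 1.37-fold higher (adjusted p = 0.0163; lost without LSK 44, LSK 46 or GMP 11, at 0.0513 to 0.0547), and Ube2o, a ubiquitin-conjugating enzyme that acts on BAP1, was 1.26-fold higher (adjusted p = 0.0471; lost in each fit without a library, at 0.0579 to 0.149). Sfmbt1, another MBT domain gene, was 1.41-fold lower (adjusted p = 0.0134; 0.0603 without LSK 46). Kdm6a and Kdm6b, which remove the PRC2 mark, did not pass (adjusted p = 0.0585 and 0.664), nor did the PRC2 accessory gene Aebp2 (0.163).

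The genes listed here as Polycomb targets were largely silent in both groups. Whether Polycomb complexes bind them in these cells was not measured. The list held Hoxb, Hoxc and Hoxd genes and no Hoxa gene, so this describes the listed genes alone. Its most abundant gene by CPM, Igf2bp3, was at means of 108.9 (LSK-derived) and 102.2 CPM (GMP-derived) and was not called. Of 45 such genes, 29 had 0 counts in all libraries, where up to 3 counts, or 0.0885 to 0.180 CPM, would be compatible with 0, and 8 had enough counts to be tested. Of these 8, 2 were called higher and 2 lower in the LSK-derived group. A member that passed the filter through 1 group alone had to differ, so these counts do not describe the list. Hoxb4, a homeobox gene that expands stem cells, stood at 6.90, 8.71 and 5.75 CPM in the LSK-derived and at 0.164, 0.386 and 1.11 CPM in the GMP-derived libraries (log2 difference 3.63 ± 0.59, adjusted p = 0.00718; 4.62 without GMP 19). Hoxb13, a posterior gene at the other side of the same cluster, had 1, 0 and 2 counts in LSK 44, LSK 45 and LSK 46 and was at 4.71, 6.26 and 8.27 CPM in the GMP-derived libraries, a ratio of 141 (exact 95% counting interval 48.4 to 685.5; adjusted p = 0.000657). Of the genes between them in RefSeq order, Hoxb9, Hoxb8, Hoxb6 and Hoxb5 had 0 counts throughout and Hoxb7 had 2 counts in GMP 19. Hoxb3, a neighbour of Hoxb4, had 3, 12 and 7 counts in the LSK-derived and 0, 0 and 2 in the GMP-derived libraries. Hoxb4 and Hoxb13 each passed the filter through the group where it was high, so their adjusted p is not separate support for a difference. By their counts, these genes of 1 cluster were high in different groups.

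The growth regulator genes on that list differed in how much they varied between libraries of a group. Cdkn2a, the best known Polycomb target in blood, had 4.23, 25.7 and 6.79 CPM in the LSK-derived and 8.65, 15.8 and 16.9 CPM in the GMP-derived libraries. LSK 45 was the highest and LSK 44 the lowest of all 6, and the gene did not pass (adjusted p = 0.880). Its log2 fold change of -0.16 ran from -1.31 to 0.24 when 1 library was left out. Cdkn2b was low, at means of 0.733 and 0.452 CPM. Its groups did not overlap, and it did not pass (adjusted p = 0.104). Hmga2, which restrains Cdkn2a in stem cells, was at 3.39, 12.9 and 9.29 CPM against 2.50, 2.23 and 2.64 CPM (log2 difference 1.80 ± 0.45, adjusted p = 0.0299). Leaving out any library but LSK 44 ended its call (adjusted p from 0.0632 without LSK 45, where the log2 fold change was 1.38, to 0.0895 without GMP 11, with 0.0892, 0.0685 and 0.0868 without LSK 46, GMP 5 and GMP 19) as did limma voom without (0.0504) and with sample weights (0.0788). Lin28b, a fetal RNA-binding protein gene, was at 1.03, 0.275 and 1.42 CPM against 8.07, 20.5 and 3.66 CPM (log2 difference -3.58 ± 0.82, adjusted p = 0.0241; lost without LSK 44 at 0.0846, LSK 45 at 0.0601 or LSK 46 at 0.0598, with no filter at 0.0659 and with limma voom at 0.0650). Without GMP 11, the highest library, it was -2.70 (adjusted p = 0.0445).

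**Figure D5:**
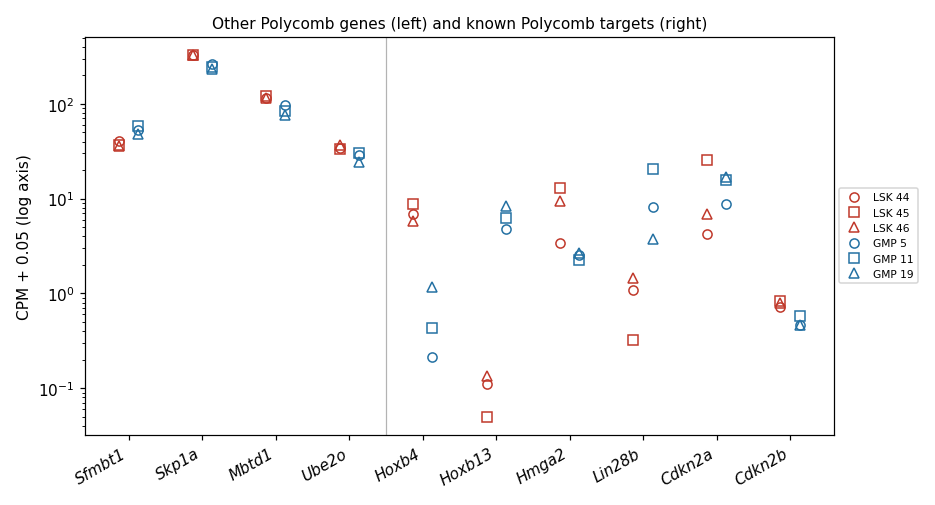
Levels in each library of 4 other Polycomb genes that were called (left of the line) and of 6 genes listed as Polycomb targets (right), as CPM plus 0.05 on a log axis (red symbols, LSK-derived; blue symbols, GMP-derived). The colours separate most widely for Hoxb13 and Hoxb4 and are mixed for Cdkn2a.

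Several Polycomb genes are known to follow proliferation, so 28 cell cycle genes were read from the same fit. Of these, 1 was higher in LSK-derived libraries (Cdk1, 1.21-fold), 5 were lower (Mki67, Ccne1, Bub1b, E2f1 and E2f2, by 1.21-fold to 2.18-fold) and 22 did not pass, a called share of 21.4% against 25.7% of all tested genes. The median log2 fold change was -0.02. The part of proliferation in the differences of Ezh2, Eed or Pcgf6 was not tested.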

How the data were processed

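RNA of 6 mouse leukaemia libraries was isolated with TRIzol and prepared with the TruSeq RNA kit, per the labels' protocols. The authors deposited 1 table of raw counts per gene symbol, 1 column a library, not normalized. STAR 2.4, HTSeq 0.6.1, DESeq2 and build mm9 are listed, with no role, per the submitters' processing notes. Neither annotation nor strand setting is given in the sources used here, so reads of overlapping genes cannot be assigned with certainty. Total counts of 16640929 to 33885428 set the counting precision.

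The test was that of edgeR 4.0.16 under R 4.3.3 (filterByExpr with its minimum count of 10, TMM, glmQLFit with robust estimation, glmQLFTest), over all 13406 tested genes with Benjamini-Hochberg adjustment and a threshold of 0.05. CPM are counts over the tested total scaled by TMM. The approximate SE is the absolute log2 fold change over the square root of F. Counting intervals and floors cover counting error only. Alternatives were RLE and upper-quartile scaling, no filter, DESeq2 1.42.0, limma 3.58.1 voom with and without sample weights, and each library left out. On counts simulated from the means and library sizes of these data (13187 genes passing the filter), edgeR recovered 60% of 100 genes changed 2-fold and 80% of 100 changed 4-fold. In that run 4.76% of calls were false. Far fewer genes were changed there than were called in the data, so these shares need not hold for the real fit. Paralogue ratios used a pseudocount of 0.5 counts. GENCODE M21 served for transcript length and exon overlap, and RefSeq for promoters and gene order, both on GRCm38 and not mm9, so no coordinates of counted reads are given. By sequence, Bmi1, Kdm2b, Pcgf1, Rbbp7 and Rybp have copies of at least 95% identity over 300 or more bases elsewhere (Gm5946, Gm12397, Gm8930, Gm6382 and Rybp-ps), which may have taken reads. Epop was read under its older symbol E130012A19Rik.

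All members are named, with called genes of the other lists (at most 6 a direction) and Aebp2, Cdkn2a, Cdkn2b, Kdm6a and Kdm6b. Of other list genes named, Igf2bp3, Hoxb3, Hoxb5, Hoxb6, Hoxb7, Hoxb8, Hoxb9, the called cell cycle genes and those under the other observations were picked with their values in view. The 7 motifs were also chosen with results known. 1 further Polycomb gene is not reported here and was left out of the lists and family shares. Members and lists were chosen with earlier results of these data known.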

Additional observations from a re-analysis of the deposited data

How the results depend on the processing

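Directions of the 12 called members were the same in all 12 alternatives. The count of members higher in LSK-derived libraries was 13 with sample weights, where Ezh2, Bmi1, Rbbp7, Rybp and Asxl1 were added and calls over all genes rose from 25.7% to 31.5%, and ran from 1 to 8 when a library was left out. That of members higher in GMP-derived libraries ran from 2 to 5, and the count over all genes from 1750 to 3467. For other Polycomb genes the higher count of 3 was 5 with upper-quartile scaling, 6 with DESeq2, 6 with sample weights and 1 to 4 without a library, and the lower count of 1 (Sfmbt1) was 2 with no filter, with DESeq2 and with sample weights, and 0 (edgeR without LSK 46, adjusted p = 0.0603) to 2 without a library. For Polycomb targets the higher count of 2 was 1 with limma voom, with or without weights, and 1 to 2 without a library, and the lower count of 2 was 1 with limma voom and 1 to 2 without a library. For cell cycle genes the higher count of 1 was 2 with upper-quartile scaling, 0 with no filter, 3 with DESeq2, 2 with sample weights and 0 to 3 without a library. Their lower count of 5 was 6 with DESeq2 and 1 to 4 without a library. The cause was not tested. Fits that leave 1 library out differ both in the number of libraries and in which ones are present. Genes near 0 changed sign. Phf1 was at 0.013 with upper-quartile scaling and ran from -0.18 to 0.16 without a library, as Pcgf3 did from -0.082 to 0.083, Cbx8 from -0.026 to 0.15, Kdm6b from -0.26 to 0.035 and Cdkn2a from -1.31 to 0.24. Of 52 family shares, 42 moved by more than 1 SD with the median transcript length. No paired analysis was possible because the groups share no replicate number. Changes under 2-fold may be missed with 3 libraries a group. On simulated counts 2-fold changes were detected only in part, and smaller ones were not simulated.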

Other observations

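The median coefficient of variation over the 33 members was 10.2% (1.91% to 23.0%) in the GMP-derived and 5.32% (0.860% to 21.6%) in the LSK-derived libraries, a difference that was not tested. Over all 13406 tested genes the medians were 11.2% and 9.36%. The GMP-derived libraries were also less alike over the whole table, where pairs differed by a chi-square of 30.2 to 49.2 per degree of freedom, against 9.70 to 27.0 between LSK-derived pairs, a measure that also grows with depth. GMP 5 was the highest GMP-derived library for 15 members and the lowest for 12, and GMP 19 the highest for 11 and the lowest for 17. In the LSK-derived group LSK 46 was the highest for 17 members and the lowest for 7, and LSK 45 the highest for 8 and the lowest for 17.

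Below the filter on low counts, L3mbtl1, an MBT domain gene, had 0, 2 and 0 counts in LSK 44, LSK 45 and LSK 46 and 8, 25 and 31 counts in GMP 5, GMP 11 and GMP 19. Wt1, a Polycomb target in development, had 0, 1 and 0 counts against 17, 3 and 8 counts. Neither gene was tested in the main fit.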
